A study of Mus musculus with 12 samples.

Results

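The core circadian clock of the mouse pituitary was followed through 10 genes: Arntl, Clock, Per1, Per2, Per3, Cry1, Cry2, Nr1d1, Nr1d2 and Dbp. They were chosen by name, as the central loop of the mammalian clock and its best-known output, out of 55421 gene IDs in the count tables. Bulk RNA sequencing gave 12 pituitary libraries from C57BL/6 mice, all with floxed alleles of Gpr101, an orphan receptor gene of the G protein-coupled class. The labels give 4 groups of 3 libraries. In cre_AA14 and cre_vehicle the genotype is Cga-creAAVGpr101fl/fl, and in ctrl_AA14 and ctrl_vehicle it is Cga-ctrlAAVGpr101fl/fl. AA14 is the ligand named in the series title, and it or control vehicle was given for 1 week before the tissue was taken. Cga is the gene of the alpha subunit shared by the glycoprotein hormones, made by gonadotrophs and thyrotrophs among pituitary cells. Pituitaries were dispersed to single cells, and the libraries are labelled as pituitary, with no cell fraction named. The sources used here give no age, no sex, no number of mice per library and no time of day of collection. Nothing in the labels says that libraries of a group came from separate mice, so p-values reflect library-to-library spread, which may be technical.

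In the clock, the proteins of Arntl (also called BMAL) and Clock pair, bind E-box sequences and switch on the Per, Cry and Nr1d genes and Dbp. The Per and Cry proteins then hold this pair back, and the Nr1d proteins (the REV-ERB receptors) silence Arntl through elements that they share with the ROR activators. In mouse tissues, the anterior pituitary among them, Arntl therefore runs close to opposite in phase to Nr1d1 and Dbp, with the Per genes after Dbp and Cry1 later still.

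Some of these elements can be read in the promoters of the genes themselves. RefSeq promoters of GRCm38.p6, from 250 bases before to 50 bases after each annotated start, were searched on both strands for the E-box CACGTG, the D-box TTATGTAA, which Dbp and its relatives bind, and the REV-ERB and ROR element TAGGTCA. The windows shown are those of the clock genes that held a match and of 2 loop partners, Ciart and Bhlhe41, that also encode repressors in the loop. The strand is that of the gene, and capitals mark the match.
Per1 (chr11:69098768-69098803, plus strand): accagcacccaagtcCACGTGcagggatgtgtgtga
Cry1 (chr10:85185094-85185129, minus strand): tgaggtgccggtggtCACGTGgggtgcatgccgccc
Per3 (chr4:151044804-151044882, minus strand): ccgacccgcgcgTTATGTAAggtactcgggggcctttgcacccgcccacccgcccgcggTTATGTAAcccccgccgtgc
Arntl (chr7:113207530-113207559, plus strand): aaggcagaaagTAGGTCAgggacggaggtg
Ciart (chr3:95882255-95882356, minus strand): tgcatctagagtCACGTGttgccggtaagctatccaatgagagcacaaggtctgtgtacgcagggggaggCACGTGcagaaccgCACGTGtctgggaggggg
Bhlhe41 (chr6:145865553-145865588, minus strand): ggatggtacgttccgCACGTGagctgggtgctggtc

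Of the 10 clock genes, 9 had an entry in the promoter table, and Per2 had none. The E-box was found in 2 of these 9 and in 3 of 9 loop partners with an entry, against 8.09% of the 27025 genes and 7.15% of the 32851 promoters in the table. Ciart held 3 copies in its window, at 116, 58 and 44 bases before the start. The D-box was in 1 of the 9, with 2 copies in the Per3 promoter, against 1.11% of all genes and 0.938% of all promoters. The REV-ERB and ROR element was in 1 of the 9, Arntl, 30 bases after an annotated start, and in 1 of the 9 loop partners, Nfil3, against 2.97% of all genes and 2.61% of all promoters. The 3 motifs share no overlapping match in the windows shown, and a match is only a run of letters in this window.

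Library totals lay between 48693682 and 73388221 counts. Levels are given as CPM, the counts of a gene relative to a library total that was scaled with trimmed means of M values. The 7 hormone genes took 17.6% to 30.8% of the counts, so the defining transcripts of the pituitary were present throughout. Gpr101 was low in every library, at 0.901 to 2.57 CPM in cre_AA14, 1.29 to 4.29 CPM in cre_vehicle, 2.20 to 6.60 CPM in ctrl_AA14 and 1.22 to 16.1 CPM in ctrl_vehicle, and it passed the test in no comparison. In 5 libraries Malat1, a long RNA that stays in the nucleus, stood at 1105 to 1560 CPM, against 199 to 549 CPM in the other 7. These 5 Malat1-rich libraries are all 3 of ctrl_AA14, cre_vehicle 1 and cre_AA14 2, so in control mice the AA14 effect and the Malat1 state cannot be told apart. In 3 libraries (cre_vehicle 2, ctrl_AA14 1 and ctrl_vehicle 3) the myelin transcript Mag reached at least 10 CPM, and oligodendrocyte markers summed to 81.1 to 3466 CPM over the 12 libraries. In cre_AA14 1 the stress-induced genes Fos and Hspa1a stood at 662 and 717 CPM.

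All 10 clock genes were well above the detection limit, with at least 591 counts for a gene in a library. Per kilobase of exon, the mean level over the 12 libraries was highest for Nr1d2 (25.6 ± 7.77 CPM per kb, SD) and Nr1d1 (24.8 ± 10.7), followed by Dbp (16.5 ± 6.24) and Per1 (14.5 ± 4.92). Cry2 (8.04 ± 1.68), Per3 (8.01 ± 4.01) and Cry1 (7.90 ± 1.88) came next, and Clock (5.07 ± 1.36), Arntl (3.78 ± 1.34) and Per2 (2.92 ± 1.26) were lowest. Nr1d2 and Nr1d1 differed by less than their spread, as did Dbp and Per1, the set of Cry2, Per3 and Cry1, and the neighbours Clock, Arntl and Per2 at the bottom. The steps between these sets were not all clear of the spread. Nr1d1 and Dbp differed by less than the SD of Nr1d1, and Per3 and Clock by less than the SD of Per3.

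The activator Arntl (chromosome 7, 113207465 to 113314126) varied more within the groups than between them. It stood at 34.0, 36.0 and 22.8 CPM in cre_AA14, 16.2, 24.5 and 29.1 CPM in cre_vehicle, 17.3, 20.3 and 48.1 CPM in ctrl_AA14, and 43.6, 26.7 and 23.1 CPM in ctrl_vehicle. The 2 highest libraries, ctrl_AA14 3 and ctrl_vehicle 1, belonged to opposite arms of the AA14 comparison in control mice, and every pair of groups overlapped. Its partner Clock (chromosome 5, 76209868 to 76304792) stood at 54.4, 77.1 and 65.5 CPM in cre_AA14, 60.0, 67.0 and 57.2 CPM in cre_vehicle, 56.6, 58.4 and 88.8 CPM in ctrl_AA14, and 106.0, 97.3 and 47.0 CPM in ctrl_vehicle. The highest and the lowest Clock values both fell in ctrl_vehicle. Npas2, a relative of Clock that can take its place beside Arntl, spanned 1.33 to 14.7 CPM and was highest in ctrl_vehicle 1.

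Among the Arntl and Clock targets, Dbp and Nr1d2 were low in the libraries highest in Arntl, while Nr1d1 followed this only in part. Dbp (chromosome 7, 45705088 to 45710203), a transcription factor that carries the rhythm to D-box genes, stood at 38.5, 28.9 and 56.4 CPM in cre_AA14, 68.0, 62.2 and 57.6 CPM in cre_vehicle, 57.1, 64.5 and 13.0 CPM in ctrl_AA14, and 24.4, 51.3 and 70.3 CPM in ctrl_vehicle. Its lowest values came from ctrl_AA14 3 and ctrl_vehicle 1, the same libraries that led in Arntl. Nr1d1 (chromosome 11, 98767932 to 98775333), which encodes the repressor REV-ERB alpha, stood at 80.6, 42.8 and 98.4 CPM in cre_AA14, 66.6, 127 and 119.6 CPM in cre_vehicle, 61.1, 56.2 and 19.2 CPM in ctrl_AA14, and 52.8, 81.9 and 111 CPM in ctrl_vehicle. It was lowest in ctrl_AA14 3, but in the 3 libraries lowest in Arntl (cre_vehicle 1, ctrl_AA14 1 and ctrl_AA14 2) it lay below its median of 73.6 CPM too. It had the widest range of the 10 genes, with a ratio of highest to lowest library of 6.63, against 5.41 for Dbp and 2.02 to 3.63 for the other 8.

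Nr1d2 (chromosome 14, 18204054 to 18239127), the gene of REV-ERB beta, stood at 97.4, 143 and 141 CPM in cre_AA14, 199, 119 and 123 CPM in cre_vehicle, 199.9, 208.5 and 99.1 CPM in ctrl_AA14, and 92.0, 132 and 108 CPM in ctrl_vehicle. The 3 highest libraries, ctrl_AA14 2, ctrl_AA14 1 and cre_vehicle 1, were the 3 lowest in Arntl, and all 3 were Malat1-rich. Strand use in the counting is not given, and on the opposite strand Sphk2 shares 18.0% of the exon bases of Dbp and Thra 8.55% of those of Nr1d1, so part of these counts may belong to the neighbour.

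The Per genes, whose products carry the repression in the first place, did not move as one. Per2 (chromosome 1, 91415982 to 91459324) stood at 9.05, 18.3 and 11.7 CPM in cre_AA14, 31.6, 13.6 and 12.1 CPM in cre_vehicle, 27.1, 26.0 and 14.3 CPM in ctrl_AA14, and 9.06, 16.3 and 16.0 CPM in ctrl_vehicle. Its 3 highest libraries were again cre_vehicle 1, ctrl_AA14 1 and ctrl_AA14 2, all Malat1-rich. Per3 (chromosome 4, 151003652 to 151044665) stood at 38.7, 96.4 and 53.7 CPM in cre_AA14, 141, 43.8 and 51.5 CPM in cre_vehicle, 128, 136.0 and 77.4 CPM in ctrl_AA14, and 41.9, 64.8 and 50.7 CPM in ctrl_vehicle. Per3 separated the libraries by Malat1 without overlap: 77.4 to 141 CPM in the 5 Malat1-rich libraries, against 38.7 to 64.8 CPM in the other 7. It was the 1 clock gene of 10 that did so upwards, against 9.23% of the 22630 genes tested, and none did so downwards, against 13.1%. Per1 (chromosome 11, 69095217 to 69109960), the Per gene that also responds quickly to stress and glucocorticoids, stood at 146, 51.6 and 87.1 CPM in cre_AA14, 69.3, 88.0 and 75.6 CPM in cre_vehicle, 102, 54.1 and 79.4 CPM in ctrl_AA14, and 52.2, 109.5 and 64.9 CPM in ctrl_vehicle. Its highest value was in cre_AA14 1, the library with the highest Fos and Hspa1a, whose part in the Per1 level was not tested.

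The cryptochromes, partners of the Per proteins in repression, had the smallest spread within groups of the 10. Cry1 (chromosome 10, 85131700 to 85185064) stood at 37.7, 25.4 and 27.8 CPM in cre_AA14, 20.9, 24.8 and 27.4 CPM in cre_vehicle, 18.3, 18.9 and 25.4 CPM in ctrl_AA14, and 38.1, 28.1 and 23.7 CPM in ctrl_vehicle. It was highest in ctrl_vehicle 1, where Arntl was also high, and lowest in ctrl_AA14 1, where Arntl was low. Cry2 (chromosome 2, 92403646 to 92434043) stood at 74.8, 41.3 and 48.4 CPM in cre_AA14, 49.3, 57.1 and 53.3 CPM in cre_vehicle, 46.1, 45.9 and 38.8 CPM in ctrl_AA14, and 37.0, 56.2 and 61.8 CPM in ctrl_vehicle. In none of the 4 comparisons between groups made here were the groups separated for either gene.

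**Figure D1:**
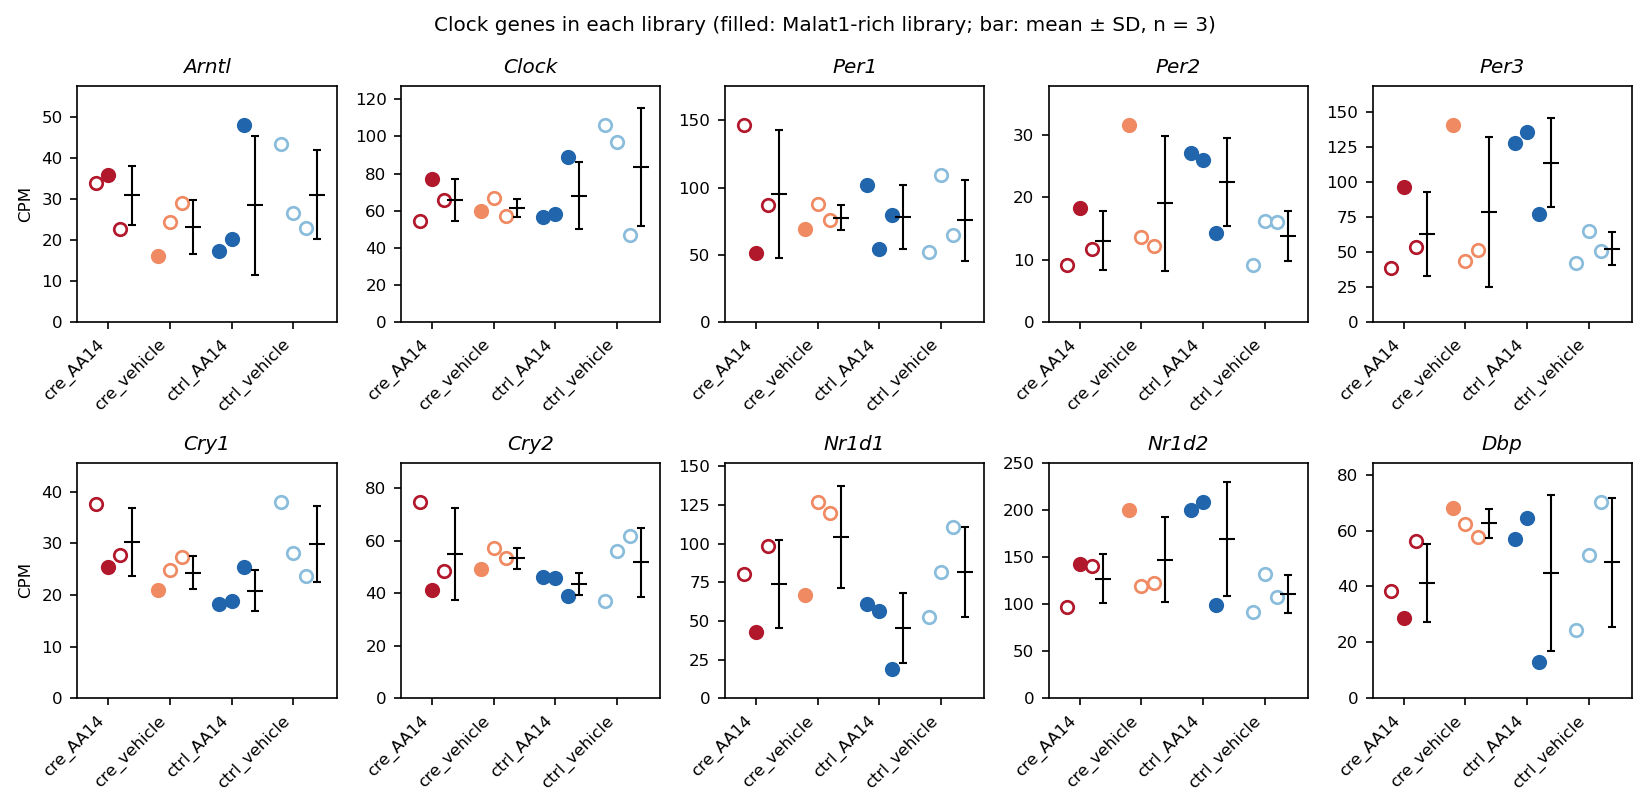
Level of each of the 10 clock genes in CPM (y axis, from 0) in every library, with cre_AA14, cre_vehicle, ctrl_AA14 and ctrl_vehicle along the x axis and replicates 1 to 3 from left to right within a group. Filled points are Malat1-rich libraries, and bars show the mean ± SD (n = 3 libraries): ctrl_AA14 3 and ctrl_vehicle 1 stand high for Arntl (48.1 and 43.6 CPM) and low for Dbp (13.0 and 24.4 CPM).

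The spread of the clock genes among libraries of the same group was wide. On the log2 scale, the SD within groups was 0.78 for Dbp, 0.67 for Nr1d1, 0.62 for Per3, 0.56 for Per2, 0.53 for Arntl and 0.52 for Per1. It was 0.42 for Nr1d2, 0.39 for Clock, 0.31 for Cry2 and 0.28 for Cry1. The median over the 10 genes was 0.53, against 0.26 over the 10690 genes that averaged 10 CPM or more, and Dbp varied more within groups than 95.9% of those genes. In bulk RNA, a change in how many cells of a type are present and a change in RNA per cell cannot be told apart.

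Whether libraries differed together along the loop was examined by setting each gene against Arntl over the 12 libraries, on the scale log2(CPM + 0.5), with 9 relations and two-sided permutation tests adjusted over them. Dbp ran opposite to Arntl (Pearson's r = -0.88, p = 3e-05, adjusted p = 0.00027; Spearman's rho = -0.80, p = 0.00226, adjusted p = 0.0203). Nr1d2 did so as well (r = -0.81, p = 0.00193, adjusted p = 0.00868; rho = -0.73, p = 0.00872, adjusted p = 0.0392). Per2 was opposite by r and missed the threshold by rank (r = -0.71, p = 0.0108, adjusted p = 0.0244; rho = -0.59, p = 0.0456, adjusted p = 0.103). Cry1 went with Arntl (r = 0.71, p = 0.00988, adjusted p = 0.0244; rho = 0.69, p = 0.0157, adjusted p = 0.0472).

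The other 5 relations missed the threshold. The permutations shuffled the libraries freely and took no account of groups or Malat1 state. Clock had r = 0.62 (p = 0.0339, adjusted permutation p = 0.061) and rho = 0.49 (p = 0.109, adjusted p = 0.163). Per3 had r = -0.51 (p = 0.0897, adjusted permutation p = 0.129) and rho = -0.52 (p = 0.0887, adjusted p = 0.16). Nr1d1 had r = -0.49 (p = 0.1, adjusted permutation p = 0.129) and rho = -0.34 (p = 0.275, adjusted p = 0.353). Cry2 and Per1 had r = -0.29 and -0.10, with rho = -0.27 and -0.13 and adjusted permutation p of at least 0.405 for both measures.

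**Figure D2:**
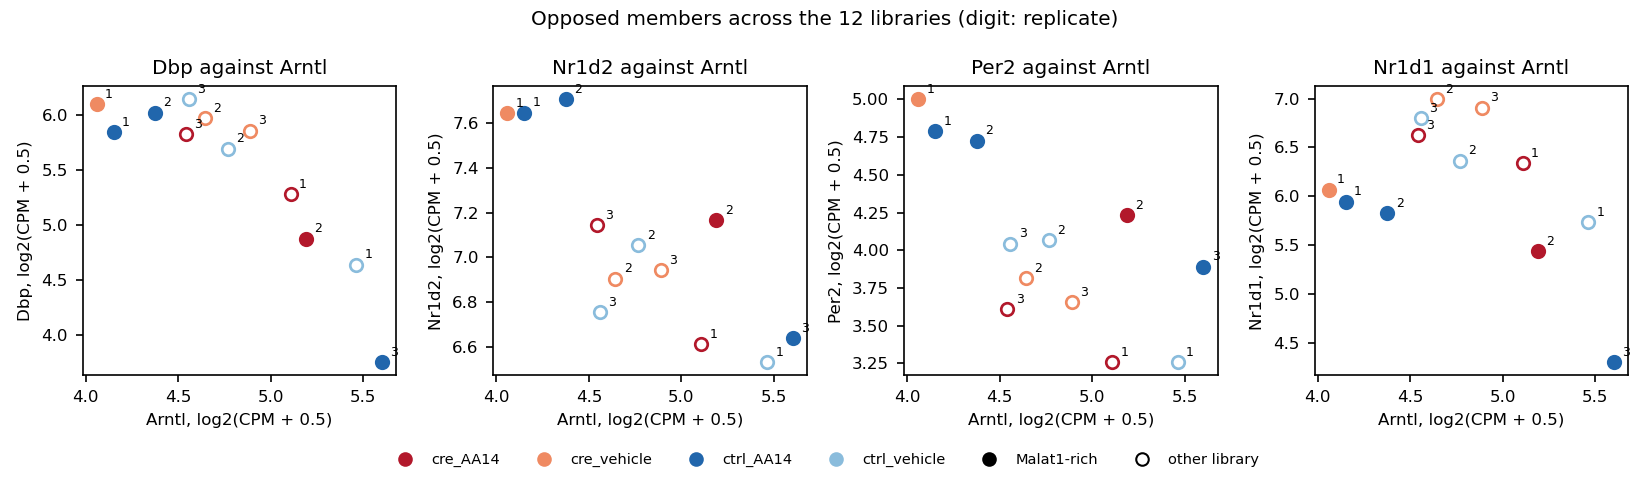
Dbp, Nr1d2, Per2 and Nr1d1 (y axes) against Arntl (x axis), all as log2(CPM + 0.5), 1 point for each of the 12 libraries, with filled points for Malat1-rich libraries. Dbp, Nr1d2 and Per2 slope downwards (r = -0.88, -0.81 and -0.71), while Nr1d1 is scattered (r = -0.49).

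The 2 libraries farthest from the Arntl median were ctrl_AA14 3 and ctrl_vehicle 1. Over the remaining 10 libraries, r was -0.78 for Dbp and 0.78 for Cry1 (adjusted permutation p = 0.038 each), and -0.73 for both Nr1d2 and Per2 (adjusted p = 0.0438 each). By rank none of the 9 relations passed in these 10 libraries, with rho between -0.66 and 0.72 and the smallest adjusted p at 0.147. Leaving out 1 library was enough to lose the call for Per2 and for Cry1, at r = -0.64 and 0.62 without ctrl_vehicle 1 (adjusted permutation p = 0.0916 each), and so it was with cre_vehicle 1 (-0.61 and 0.68) or ctrl_AA14 1 (-0.65 and 0.64). For Nr1d1, r was 0.04 in the 10 libraries without ctrl_AA14 3 and ctrl_vehicle 1, against -0.49 in all 12. Clock likewise had r = 0.28 in these 10, while Per3 had r = -0.60 (adjusted permutation p = 0.127). Nr1d1 also differed by Malat1 state, averaging 49.2 CPM in the 5 Malat1-rich libraries and 95.9 CPM in the other 7. In the same order, Per2 averaged 23.5 and 12.5 CPM, Nr1d2 170 and 116 CPM, and Cry1 21.8 and 29.7 CPM. Dbp (46.3 and 51.5 CPM) and Arntl (27.6 and 29.1 CPM) were closer between the 2 sets. The part of these differences in the values of r was not tested. Among the 7 libraries poor in Malat1, Dbp had r = -0.95 and Cry1 r = 0.89 (adjusted exact permutation p = 0.0402 each). There Nr1d1 had r = -0.81 (adjusted p = 0.072), and Per2 and Nr1d2 had r = -0.77 and -0.76 (adjusted p = 0.0825 each), all by exact permutation. By rank, the smallest adjusted exact permutation p among these 7 libraries was 0.329.

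The 5 Malat1-rich libraries are too few for a correlation, but their order can be read directly. By Arntl they ran cre_vehicle 1, ctrl_AA14 1, ctrl_AA14 2, cre_AA14 2 and ctrl_AA14 3, low to high. For Dbp, Per2, Per3, Cry2, Nr1d1 and Nr1d2, ctrl_AA14 3 was the lowest of the 5 and cre_AA14 2 the next. Cre_vehicle 1 was the highest of the 5 for each of these except Nr1d2, which was highest in ctrl_AA14 2. For Per2, Cry2 and Nr1d1 the order of the 5 was the full reverse of that for Arntl. Cry2 was nearly level in ctrl_AA14 2 and ctrl_AA14 1, at 45.9 and 46.1 CPM. The share of all genes with this order was not counted. Per1 did not follow, being lowest in cre_AA14 2 and highest in ctrl_AA14 1. Clock was highest in ctrl_AA14 3, as Arntl was, while Cry1 was level in ctrl_AA14 3 and cre_AA14 2 (25.4 CPM each). In the other 7 libraries, ctrl_vehicle 1 was highest in Arntl, Clock, Npas2 and Cry1 and lowest in Dbp, Nr1d1, Nr1d2, Per1 and Cry2. Per2 and Per3 were lowest there in cre_AA14 1, with ctrl_vehicle 1 next.

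The ratio of Arntl to Dbp puts this opposition in 1 value per library. As log2 it was -0.18, 0.32 and -1.31 in cre_AA14, -2.07, -1.35 and -0.98 in cre_vehicle, -1.72, -1.67 and 1.89 in ctrl_AA14, and 0.83, -0.94 and -1.61 in ctrl_vehicle. CPM are not corrected for gene length, so only differences of this ratio between libraries can be read. It was highest in ctrl_AA14 3 and next in ctrl_vehicle 1, and lowest in cre_vehicle 1, and the groups overlapped in each of the 4 comparisons between groups. The log2 ratio of Arntl to Nr1d1 was 1.33 in ctrl_AA14 3 and lay between -2.38 and -0.25 in the other 11 libraries. In each group, the library highest in Arntl was thus the lowest in Dbp. Not all phase-opposed members did so. In cre_vehicle, replicate 1 was the lowest of the group for both Arntl (16.2 CPM) and Nr1d1 (66.6 CPM). No collection time is given in the sources used here, so whether these libraries differ in time of day was not tested.

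**Figure D3:**
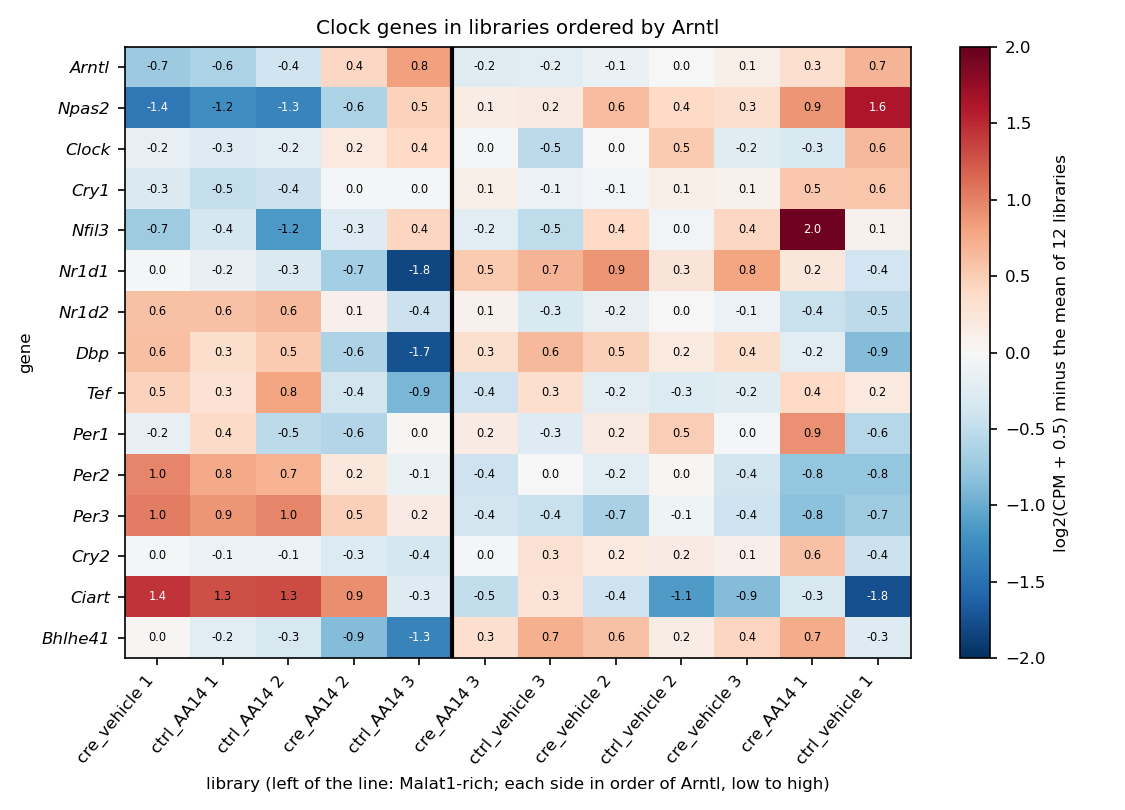
Deviation of log2 level from each gene's mean over the 12 libraries, for the 10 clock genes and 5 loop partners (rows), with libraries in columns, Malat1-rich ones left of the line and each side ordered by Arntl. At the right ends of the 2 sides stand ctrl_AA14 3 and ctrl_vehicle 1, where Arntl is the highest and Dbp and Nr1d2 the lowest of their side. Cry1 is the highest of its side in ctrl_vehicle 1, and is level in ctrl_AA14 3 and cre_AA14 2.

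No clock gene passed the test for the effect of AA14 in control mice, ctrl_AA14 against ctrl_vehicle, which asks what the ligand does where Gpr101 is left intact. With edgeR's quasi-likelihood test and Benjamini-Hochberg adjustment over 22630 genes, 0 of 10 had an adjusted p under 0.05, against 0.00442% of all genes. Per3 averaged 113.9 ± 31.8 CPM in ctrl_AA14 and 52.4 ± 11.5 CPM in ctrl_vehicle (SD, n = 3 each), a log2 fold change of 1.12 (SE 0.46, edgeR adjusted p = 0.176). The groups did not overlap for Per3, which was the 1 clock gene of 10 so separated, against 37.7% of all genes. Cry1 averaged 20.9 ± 3.91 CPM in ctrl_AA14 and 30.0 ± 7.35 CPM in ctrl_vehicle, a log2 fold change of -0.52 (SE 0.22, edgeR adjusted p = 0.191). These 2 genes had an unadjusted p under 0.05 (0.0311 and 0.0393), as did 23.8% of all genes.

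The rest were further from the threshold. Nr1d1 averaged 45.5 ± 22.9 CPM in ctrl_AA14 and 81.9 ± 29.0 CPM in ctrl_vehicle (log2 fold change -0.85, SE 0.45, edgeR adjusted p = 0.27). Nr1d2 and Per2 had log2 fold changes of 0.61 (edgeR adjusted p = 0.235, SE 0.30) and 0.71 (edgeR adjusted p = 0.316, SE 0.42). Arntl, Clock, Per1, Cry2 and Dbp lay between -0.30 and 0.05, with SEs of 0.24 to 0.51 and edgeR adjusted p of at least 0.544. The median log2 fold change of the 10 genes was -0.12, with 4 positive and 6 negative, against a median of -0.02 over all genes.

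Limma-voom with quality weights called Per3 (1.17, adjusted p = 0.024) and Cry1 (-0.67, adjusted p = 0.0258), 2 of 10 against 15.1% of all genes, and an edgeR fit of only these 2 groups called Per3 (1.13, adjusted p = 0.0406), 1 of 10 against 10.6%. DESeq2 called none of the 10, against 10.1% of all genes. Over all settings tried, the log2 fold change of Per3 lay between 0.96 and 1.34 with adjusted p between 0.024 and 0.484, and that of Cry1 between -0.68 and -0.31 with adjusted p between 0.0258 and 0.474. All 3 ctrl_AA14 libraries and none of ctrl_vehicle were Malat1-rich, and Per3 was also high in the Malat1-rich cre_vehicle 1 (141 CPM) and cre_AA14 2 (96.4 CPM), which differ in treatment.

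In cre mice the same question was put to cre_AA14 against cre_vehicle. None of the 10 genes passed edgeR's test (adjusted p = 1.00 for each), as with 0.0% of all genes, and none had an unadjusted p under 0.05, against 2.29%. DESeq2 and limma-voom also called 0 of the 10. Over all genes, DESeq2 called 3 higher and 11 lower of 22325, and limma-voom called 0 of 22630. Dbp averaged 41.3 ± 14.0 CPM in cre_AA14 and 62.6 ± 5.20 CPM in cre_vehicle (SD, n = 3 each; log2 fold change -0.60, SE 0.51). The groups did not overlap for Dbp, 1 of 10 clock genes against 5.86% of all genes, although cre_AA14 3 (56.4 CPM) and cre_vehicle 3 (57.6 CPM) were nearly level. The other 9 lay between -0.55 for Per2 and 0.41 for Arntl. Per1 averaged 95.0 ± 47.9 CPM in cre_AA14 and 77.6 ± 9.51 CPM in cre_vehicle, a log2 fold change of 0.29 that became -0.17 without cre_AA14 1. Immediate-early genes summed to 8878 CPM in that library and to at most 2571 CPM in the others, and their part in the Per1 value was not tested.

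The cre virus under vehicle, cre_vehicle against ctrl_vehicle, left all 10 genes with an edgeR adjusted p of 1.00, while 0.00442% of all genes passed. Log2 fold changes ran from -0.44 for Clock to 0.58 for Per3, with a median of 0.20 against -0.02 over all genes, and 7 were positive. No clock gene was separated between the groups, against 4.92% of all genes, or had an unadjusted p under 0.05, against 2.0%. The positive Per3 value came from cre_vehicle 1, without which it was -0.14. For Per2 the log2 fold change was 0.47 with that library and -0.10 without it.

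Under AA14, cre_AA14 against ctrl_AA14 showed no clock gene past edgeR's adjusted threshold either, as with 0.0% of all genes. Cry1 averaged 30.3 ± 6.50 CPM in cre_AA14 and 20.9 ± 3.91 CPM in ctrl_AA14 (SD, n = 3 each), a log2 fold change of 0.54 with an edgeR adjusted p of 0.582. Its unadjusted p of 0.0346 was the 1 of 10 under 0.05, against 8.52% of all genes. Per3 and Per2 had negative values (log2 fold changes -0.86 and -0.79, edgeR adjusted p = 0.615 each), and Nr1d1 a positive one (0.70, adjusted p = 0.659). All 10 genes overlapped between the groups, against 14.1% of all genes that did not. Only cre_AA14 2 of the 3 cre_AA14 libraries was Malat1-rich, whereas all of ctrl_AA14 were.

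Whether AA14 acted differently in the cre and control mice was tested as the AA14 effect in cre mice minus that in control mice. Per3 had a difference of -1.44 (log2, SE 0.64, unadjusted p = 0.0449, edgeR adjusted p = 0.631). Cry1 differed by 0.84 in log2 (SE 0.32, unadjusted p = 0.0225, edgeR adjusted p = 0.631), and Per2 by -1.26 (SE 0.59, unadjusted p = 0.0557, adjusted p = 0.631). Of the 10 genes 0 passed the adjusted threshold, against 0.00442% of all genes, and 2 had an unadjusted p under 0.05, against 7.03%. DESeq2 and limma-voom called 0 of 10 here, as they did for both effects of the cre virus. Over all 22325 genes, DESeq2 called 8 higher and 18 lower here, 11 and 8 for cre under vehicle, and 16 and 18 for cre under AA14. Of 22630 genes, limma-voom called 0 here and for cre under AA14, and 1 higher and 1 lower for cre under vehicle.

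**Figure D4:**
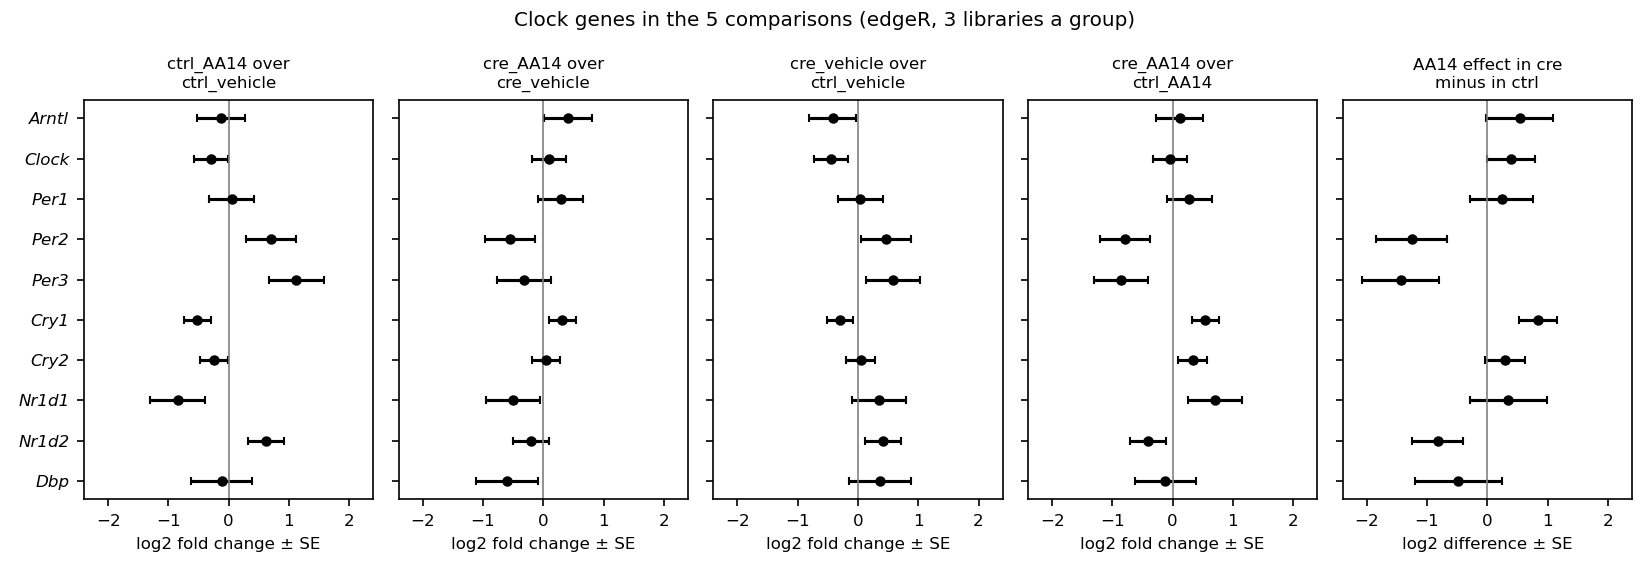
Log2 fold change (x axis) with its SE (bars) for each of the 10 clock genes (rows) in the 5 comparisons, from 1 edgeR fit of all 12 libraries, with the line at 0 marking no difference. Per3 has the largest values, 1.12 for AA14 in control mice and -1.44 for the difference of AA14 effects, and no gene has an edgeR adjusted p under 0.05.

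The loop partners, 11 genes that feed into or lock onto the same loop, were not called either. None of the 11 passed the edgeR test in any of the 5 comparisons, where the smallest adjusted p was 0.226. Of all genes, 0.0% or 0.00442% passed in each comparison. Ciart, a repressor of the Arntl and Clock pair, stood at 2.76, 7.27 and 2.38 CPM in cre_AA14, 10.6, 2.57 and 1.74 CPM in cre_vehicle, 9.48, 9.53 and 2.92 CPM in ctrl_AA14, and 0.708, 1.35 and 4.41 CPM in ctrl_vehicle. It was lowest in ctrl_vehicle 1, and within the Malat1-rich libraries in ctrl_AA14 3. The PAR bZIP factor Tef, a relative of Dbp, was lowest in ctrl_AA14 3 (30.1 CPM) and highest in ctrl_AA14 2 (98.9 CPM). Hlf, another relative of Dbp, stood at 40.6, 33.6 and 33.5 CPM in ctrl_AA14 and 59.3, 50.7 and 57.7 CPM in ctrl_vehicle, with no overlap, as for 37.7% of all genes (log2 fold change -0.64, SE 0.33, edgeR adjusted p = 0.254). Hlf also separated the libraries by Malat1, with 29.4 to 40.6 CPM in the 5 Malat1-rich libraries and 49.8 to 78.8 CPM in the other 7, and the part of this in the AA14 value was not tested.

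Bhlhe41, a repressor that competes for E-boxes, was lowest in ctrl_AA14 3 (14.3 CPM) and highest in cre_AA14 1 (61.7 CPM). Bhlhe40, its close relative, stood at 255.8 CPM in cre_AA14 1 and at 25.5 to 48.3 CPM in the other 11 libraries. Nfil3, which opposes Dbp at D-boxes, showed the same peak, with 60.7 CPM in cre_AA14 1 and 6.61 to 20.7 CPM elsewhere. Of the receptors that activate Arntl, Rora spanned 50.4 to 64.2 CPM and Rorb 25.3 to 37.5 CPM. Arntl2, a relative of Arntl, stood at 1.49 to 3.19 CPM.

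Enzymes that mark clock proteins for activity or decay, 10 kinase, ligase and related genes, had mostly negative values with AA14 in control mice. There 9 of 10 had negative log2 fold changes (median -0.48, against -0.02 over all genes). Of the 10, 0 passed edgeR's adjusted threshold, against 0.00442% of all genes. Csnk1d and Csnk1e, the casein kinases that phosphorylate Per proteins, had log2 fold changes of -0.77 and -0.61, and Fbxw11, part of a ubiquitin ligase, had -0.57, with edgeR adjusted p of 0.141 to 0.174. The summed level of this list was 465 to 533 CPM in the 5 Malat1-rich libraries and 542 to 753 CPM in the other 7. Of all single genes, 13.1% were likewise lower in the Malat1-rich libraries without overlap.

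Across the 13888 genes that averaged 1 CPM or more and had an ordinary symbol, the profile closest to Arntl over the 12 libraries belonged to Plekha1 (Pearson's r = 0.87 on log2(CPM + 0.5)), followed by Sptlc3 (0.83), Prcp (0.80), Stk4 (0.79) and Mboat1 (0.79). Of all these genes Dbp was the most opposed to Arntl (r = -0.88), before Cyp2a5 (-0.85), Tspan4 (-0.82), Rnf5 (-0.82) and Nr1d2 (-0.81). Counted from the most alike, Cry1 was in place 34 (r = 0.71) and Per2 in place 13866 (r = -0.71). Among the loop partners, Npas2 was the most like Arntl (r = 0.72, rank 30) and Ciart the most opposed (r = -0.62). Nr1d1 was closest to Rab11fip3 (0.95), Aldh4a1 (0.94), Bhlhe41 (0.94), Phactr1 (0.93) and Os9 (0.93), and most opposed to Dctn6 (-0.94), Phtf2, Pde9a and Ccdc28a (-0.93 each) and Hsf2 (-0.92). Dbp was in place 536 of that order for Nr1d1 (r = 0.82). These correlations describe the 12 libraries, which share groups and Malat1 state, and carry no test.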

How the data were processed

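Pituitary RNA went into NEBNext Ultra libraries, and paired reads were mapped with HISAT2, per the labels' protocols. The tools featureCounts 1.5.0-p3 and DESeq 1.8.3 and the build GRCm38 are listed, without roles, in what the submitters' processing notes name. Neither the strand setting nor the annotation release appears in the sources used here. The deposited tables hold raw counts, 1 table for each library, and 55154 of 55421 gene IDs matched a symbol. Gene coordinates come from a GENCODE annotation (GRCm38), and promoter sequences from RefSeq tables of GRCm38.p6.

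In edgeR 4.0.16 (R 4.3.3), genes were kept with filterByExpr, which left 22630, and scaled with TMM. Quasi-likelihood F tests were run with 1 mean per group over all 12 libraries, and p-values were adjusted by Benjamini-Hochberg over all genes at a threshold of 0.05. The SE of a log2 fold change is its size divided by the square root of F. For AA14 in control mice, the median SE was 0.262 over genes averaging 1 CPM or more. The fit was tested on simulated data first. Correlations of log2(CPM + 0.5) used 100000 permutations, or all of them for 7 libraries.

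Alternatives were RLE scaling, no low-count filter, DESeq2 1.42.0, limma-voom 3.58.1 with quality weights, only the groups compared, only libraries under 1000 CPM of Malat1, a replicate block and each library left out. For correlations, a pseudocount of 5 and deviations from group means were also tried. Leaving out the 3 libraries with at least 10 CPM of Mag was chosen after seeing the data. Named were all 10 clock genes, the loop partners, Gpr101, list genes whose values move with a clock gene, and for likeness the 5 highest and 5 lowest r with Arntl and Nr1d1. The kinase and ligase genes given by name, Thra and Sphk2 were named after their values were seen. Some list genes are not reported here. The clock genes and the lists were chosen with earlier results of these data known.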

Additional observations from a re-analysis of the deposited data

How the results depend on the processing

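With RLE scaling, without the low-count filter and with DESeq2, 0 of the 10 clock genes were called in any comparison, and no log2 fold change turned its sign. Over all genes, RLE scaling and the fit without the filter each called at most 1 higher and 1 lower gene in a comparison. Calls for AA14 in control mice moved to 1 with only the groups compared and to 2 with limma-voom. With limma-voom, signs turned for Per1 (-0.02) and Dbp (0.21) with AA14 in control mice, for Per3 (0.00), Cry2 (-0.07), Nr1d2 (0.04) and Arntl (-0.01) with AA14 in cre mice, and for Dbp (0.08) and Clock (0.05) for cre under AA14. Without the 3 Mag-rich libraries, signs turned for Per1 (-0.25) and Dbp (0.05) with AA14 in control mice, Per1 (-0.14) for cre under vehicle, and Dbp (0.07) and Arntl (-0.17) for cre under AA14. With only libraries under 1000 CPM of Malat1, they turned for Clock with AA14 in cre mice (-0.06) and for Per2 (-0.10) and Per3 (-0.13) for cre under vehicle. That setting leaves no ctrl_AA14 library, so the other 3 comparisons could not be fitted. The cause of these turns was not tested.

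Leaving out each library in turn, AA14 in control mice gave -0.19 to 0.42 for Per1, -0.49 to 0.33 for Dbp and -0.72 to 0.20 for Arntl. AA14 in cre mice gave -0.17 to 0.58 for Per1, -0.88 to 0.01 for Per2, -0.77 to 0.39 for Per3, -0.26 to 0.20 for Cry2, -0.34 to 0.06 for Nr1d2 and -0.04 to 0.20 for Clock. For cre under vehicle the ranges were -0.17 to 0.41 for Per1, -0.10 to 0.71 for Per2, -0.14 to 0.87 for Per3 and -0.15 to 0.19 for Cry2. For cre under AA14 they were -0.17 to 0.58 for Per1, -0.57 to 0.24 for Dbp, -0.14 to 0.71 for Arntl and -0.17 to 0.18 for Clock. The difference of AA14 effects ranged from -0.21 to 0.54 for Per1 and from -0.04 to 0.63 for Nr1d1. None of the 10 genes was called with a library left out, where at most 4 of all genes were called higher and 2 lower in a comparison.

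For correlations with Arntl, leaving out each library gave r of -0.90 to -0.86 for Dbp and -0.87 to -0.76 for Nr1d2, all past the threshold. It gave -0.79 to -0.61 for Per2, 0.62 to 0.85 for Cry1, 0.50 to 0.72 for Clock and -0.30 to 0.09 for Per1. Per2 no longer passed without cre_vehicle 1, ctrl_AA14 1 or ctrl_vehicle 1 (-0.61, -0.65 and -0.64, adjusted permutation p between 0.075 and 0.0916), nor did Cry1 (0.68, 0.64 and 0.62, adjusted p between 0.0642 and 0.0916), and Clock passed without cre_AA14 1 (0.72, adjusted p = 0.0314) or ctrl_vehicle 2 (0.70, adjusted p = 0.0309). Without the 2 farthest libraries r turned its sign for Per1 (0.14), Cry2 (0.31) and Nr1d1 (0.04). In the libraries under the Malat1 limit, Per2 (-0.77) and Nr1d2 (-0.76) no longer passed. Without the Mag-rich libraries Per1 had 0.00, and Per2 (-0.68, adjusted permutation p = 0.139) and Cry1 (0.62, adjusted permutation p = 0.166) no longer passed. As deviations from group means, Nr1d1 passed (-0.65, adjusted permutation p = 0.0429), and over all alternatives but the libraries left out its adjusted p ran from 0.0429 to 0.906.

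No clear pairing by replicate number was seen: only 5 of 18 same-numbered pairs had a correlation over 0.1, and 2 of 12 libraries matched best with their own number. Deviations from means of 3 libraries also carry the Malat1 state, so this check cannot decide whether the samples were paired. With the replicate block, 0 of 10 clock genes were called in each comparison, where at most 1 of all 22630 genes was called. The 50 log2 fold changes lay between -1.37 and 1.07, within 0.11 of those without the block. With 3 libraries a group, within-group SDs of up to 0.78 set the precision, not depth.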

Other observations

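Glucocorticoid-induced genes, which can shift clock genes such as Per1 in many tissues, were set beside the clock as a list of 9. None passed edgeR's adjusted threshold in any of the 5 comparisons, against 0.0% or 0.00442% of all genes in each. Fkbp5, a co-chaperone of the glucocorticoid receptor, stood at 53.5, 55.0 and 53.0 CPM in ctrl_AA14 and 73.9, 96.7 and 86.5 CPM in ctrl_vehicle, a log2 fold change of -0.67 (SE 0.23, edgeR adjusted p = 0.142). The groups did not overlap for Fkbp5, as for 37.7% of all genes. Of the 9 genes of the list, 2 were so separated, both lower with AA14. Log2 fold changes in this comparison were negative for 7 of the 9 and positive for 2, from -1.10 to 0.69. The cre_AA14 values of Fkbp5, 92.6, 72.3 and 108 CPM, lay above all of ctrl_AA14 too, a comparison in which 14.1% of all genes did not overlap (log2 fold change 0.76, SE 0.23, edgeR adjusted p = 0.582). There 8 of the 9 had positive values and 1 a negative one, with 1 gene separated upwards and 1 downwards. In cre_vehicle Fkbp5 stood at 55.3, 80.2 and 109.6 CPM. Fkbp5 was also separated by Malat1, at 53.0 to 72.3 CPM in the 5 Malat1-rich libraries and 73.9 to 109.6 CPM in the other 7, whose part in these values was not tested. The list summed to 1181 CPM in cre_AA14 1, the library with the highest Fos and Hspa1a. In cre_AA14 2 and 3 it summed to 493.7 and 479.5 CPM, within the 406 to 609 CPM of cre_vehicle.

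Among 9 genes known as clock outputs in other mouse tissues, 0 passed in any comparison, against 0.0% or 0.00442% of all genes in each. Of these, Tspan4 was among the 5 genes most opposed to Arntl over the 12 libraries (r = -0.82), at 5.58 to 15.7 CPM. It is named for this r in the same data, and r with Arntl for the rest of the list is not reported here. Immediate-early genes had positive log2 fold changes for 17 of 17 members with AA14 in cre mice (median 1.88). Of these genes 0 passed edgeR's adjusted threshold, as with 0.0% of all genes, and 8 had an unadjusted p under 0.05, against 2.29%. Their sum was 8878 CPM in cre_AA14 1 but 994 and 751 CPM in cre_AA14 2 and 3, within the 545 to 1209 CPM of cre_vehicle.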
